A study of Mus musculus with 9 samples.

Results

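The 10 genes described here encode costimulatory and coinhibitory ligands of the B7 and TNF superfamilies that macrophages present to lymphocytes, together with the receptor CD40. They are Cd86, Cd80, Cd40, Cd274, Pdcd1lg2, Icosl, Tnfsf14, Tnfsf9, Tnfsf13b and Cd276. They were chosen by symbol, each symbol occurred once, and they are 10 of 55335 gene IDs in the table. RNA came from mouse peritoneal macrophages, the phagocytes of the abdominal cavity, cultured for 1 h and then treated for 4 h with 1 µg/mL of lipopolysaccharide (LPS), the bacterial ligand of TLR4. The group LPS received nothing else, LPS+EtOH received 5% ethanol as well, and LPS+CPZ was given CPZ, a name that the labels leave unexplained, at 100 µM. Each group had 3 libraries and each library pooled RNA from 3 samples, which may or may not be separate animals, so the p-values measure only the spread between pools. Every group carried LPS; genotype, strain, sex and age of the mice are not given in the sources used here, and cells without LPS were not analysed here.

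An antigen-presenting cell gives a T cell a second signal beside the antigen. CD80 and CD86 bind CD28, which activates T cells, and CTLA-4, which restrains them, while PD-L1 (Cd274) and PD-L2 (Pdcd1lg2) bind the inhibitory receptor PD-1 and ICOS ligand (Icosl) binds ICOS. CD40 is the receptor through which T cells stimulate macrophages, B cells and dendritic cells. Of the TNF family ligands, LIGHT (Tnfsf14) binds HVEM and the lymphotoxin beta receptor, 4-1BB ligand (Tnfsf9) binds 4-1BB on activated T cells, and BAFF (Tnfsf13b) supports B cell survival. M2b is the name of a regulatory macrophage state seen after immune complexes and a TLR ligand, for which CD86 and LIGHT serve as markers, and the study's title concerns this state.

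Values are FPKM, the authors' fragment values divided by gene length and library size, a scale per length on which genes can be compared. The step between the lowest values corresponded to about 27300000 to 39800000 fragments per library, which is an estimate and not a read count. A gene was tested where 3 or more libraries reached 1 FPKM, which 8 of the 10 did. Tnfsf13b and Cd276 were not tested. Fold changes are differences of log2(FPKM + 1) from limma with a standard error (SE), and p-values were adjusted by the Benjamini-Hochberg method over all 11721 tested genes. The scaling matters in these data: taking every tested gene, the median log2 change was -0.82 in LPS+EtOH against LPS as deposited and -0.08 after median-ratio scaling, which divides each library by the median ratio of its genes to their geometric mean over libraries, and -0.33 and -0.08 in LPS+CPZ against LPS. The 4 adult globin genes took 11.5 to 29.4% of all FPKM in the LPS libraries and 0.0452 to 0.221% in the other 6.

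Markers of other cells differed between the groups, and ligands of this family are also made by B cells, dendritic cells and neutrophils. Of 15 listed symbols of B cell markers 14 were found. The summed level of these markers was 1608 to 2300 FPKM in LPS, 153 to 208 in LPS+EtOH and 1239 to 1460 in LPS+CPZ, with none at 0 in all libraries of a group. Most of that sum was the immunoglobulin gene Ighm (means of 1249, 120 and 1160 FPKM), and the other 13 had lower means in both treated groups than in LPS, with sums of 607 to 890, 44.4 to 67.8 and 178 to 233 FPKM. The 15 neutrophil markers summed to 4740 to 6553 FPKM in LPS, 47888 to 52807 in LPS+EtOH and 7963 to 8744 in LPS+CPZ, again with none at 0. Without S100a9, the most abundant, the other 14 summed to 1981 to 2725, 16805 to 18493 and 4847 to 5431 FPKM, and 13 of them had a higher mean in LPS+EtOH and 8 in LPS+CPZ than in LPS. The 11 dendritic cell markers summed to 147 to 207, 29.5 to 30.9 and 97.4 to 142 FPKM, and Siglech, a marker of plasmacytoid dendritic cells, was at 0 in all libraries of LPS+EtOH and LPS+CPZ. Without Ccr7, the most abundant, the other 10 summed to 27.2 to 41.4, 16.6 to 20.0 and 43.5 to 49.7 FPKM, so that their sum was highest in LPS+CPZ. The 15 T and NK cell markers summed to 104 to 142, 3.27 to 6.40 and 21.6 to 37.7 FPKM, with Klrb1c at 0 in LPS+EtOH, the 8 mast cell markers to 176 to 204, 205 to 272 and 25.0 to 50.9 FPKM, with Ms4a2 at 0 in LPS+EtOH (50.1 to 91.2, 23.2 to 61.1 and 13.9 to 36.3 FPKM without Hdc), and the 6 red blood cell markers to 34791 to 107458, 608 to 747 and 153 to 349 FPKM. Defining macrophage genes were present in all groups: Csf1r, the receptor of the growth factor CSF-1, had means of 24.9, 19.4 and 36.9 FPKM in LPS, LPS+EtOH and LPS+CPZ, and Adgre1, which encodes F4/80, 141, 89.0 and 88.5 FPKM. All 14 pan-macrophage markers were found, with sums of 1858 to 2395, 3225 to 3494 and 1414 to 1635 FPKM. Cd14, the most abundant of these, had means of 907, 2177 and 406 FPKM. Without Cd14 the remaining 13 gave 1115 to 1365, 1161 to 1301 and 989 to 1234 FPKM, ranges that overlapped. Compared with LPS, LPS+EtOH had lower means for 9 of these 13 and higher means for 4. For LPS+CPZ, 7 were lower and 6 higher. The 14 markers of large peritoneal macrophages, the main resident type, summed to 668 to 854, 708 to 917 and 727 to 820 FPKM. Thbs1 carried that sum (means of 421, 679 and 604 FPKM). The other 13 summed to 343 to 377, 134 to 149 and 160 to 201 FPKM, and all 13 had a lower mean in LPS+EtOH and 12 in LPS+CPZ than in LPS. Prg4 had means of 82.3, 1.10 and 22.1 FPKM and Timd4 of 7.82, 0.162 and 0.977 FPKM. In bulk RNA, fewer cells of a type and less RNA per cell cannot be told apart, and the part of these cells in the results below was not tested.

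**Figure D1:**
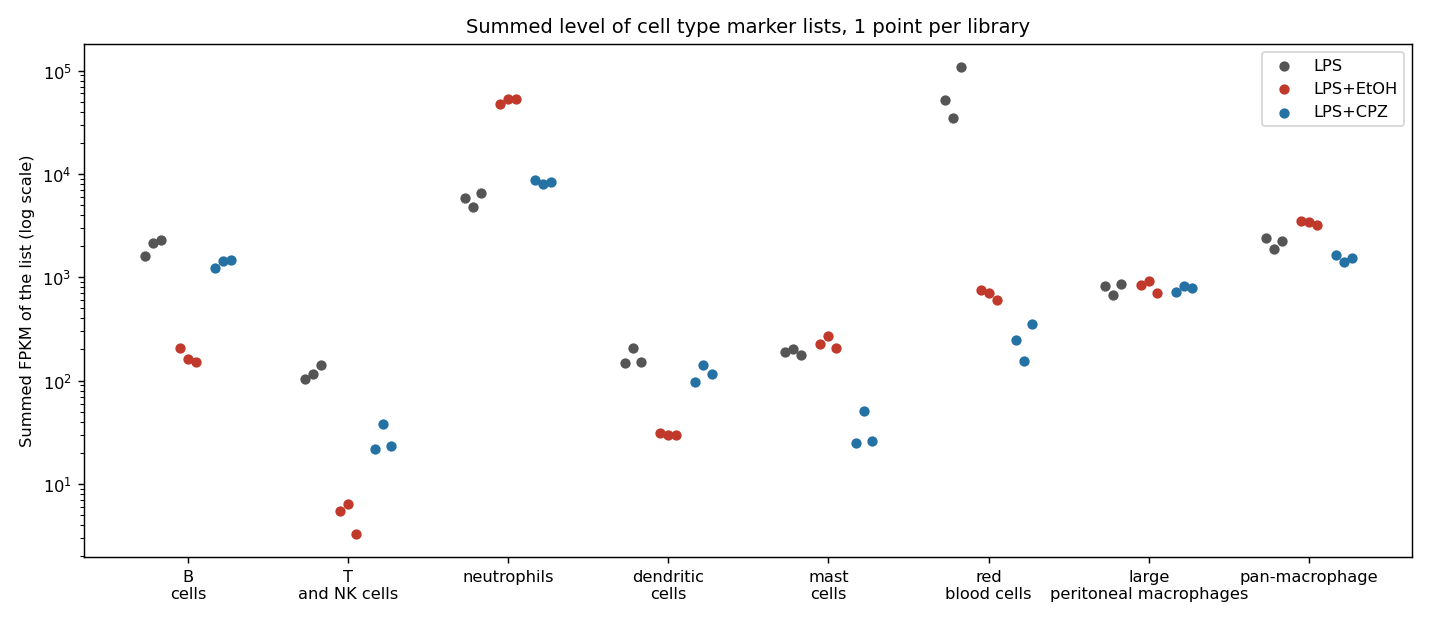
Summed FPKM of 8 lists of cell type markers on a log axis, with 1 point per library and colours for the 3 groups. B cell, T and NK cell and dendritic cell lists were lowest and the neutrophil list highest in LPS+EtOH, and the overlapping sums of the large peritoneal macrophage list rest on Thbs1, since the other 13 markers had lower means in LPS+EtOH than in LPS.

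Promoter sequences are shown for the 3 tested genes whose window held no annotated exon. With FPKM as deposited, Tnfsf14 was higher in both treated groups, Cd80 lower in both, and Pdcd1lg2 passed the test in neither. Each run gives the 250 bases before the transcription start, 5′ to 3′, from RefSeq on GRCm38.p6, and 7 of the 10 genes had an entry, the others being Cd86, Cd40 and Tnfsf9. Tnfsf14 lies at chr17:57194182-57194431 on the minus strand, Cd80 at chr16:38458683-38458932 on the plus strand and Pdcd1lg2 at chr19:29410669-29410918 on the plus strand. Capitals mark matches to the AP-1 motif TGANTCA, the interferon-stimulated response element (ISRE), which is GAAA, 2 bases of any kind and GAAA, or the NF-kB consensus, searched on both strands.
Tnfsf14: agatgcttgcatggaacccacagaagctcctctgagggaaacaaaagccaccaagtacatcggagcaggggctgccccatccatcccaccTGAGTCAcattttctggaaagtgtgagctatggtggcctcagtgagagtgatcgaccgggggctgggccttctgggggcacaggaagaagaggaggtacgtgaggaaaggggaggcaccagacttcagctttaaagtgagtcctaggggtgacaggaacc
Cd80: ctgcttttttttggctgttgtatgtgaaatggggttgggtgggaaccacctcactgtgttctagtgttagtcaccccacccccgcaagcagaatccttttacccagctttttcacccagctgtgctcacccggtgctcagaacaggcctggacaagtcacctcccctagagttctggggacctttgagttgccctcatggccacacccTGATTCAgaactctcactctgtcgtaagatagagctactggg
Pdcd1lg2: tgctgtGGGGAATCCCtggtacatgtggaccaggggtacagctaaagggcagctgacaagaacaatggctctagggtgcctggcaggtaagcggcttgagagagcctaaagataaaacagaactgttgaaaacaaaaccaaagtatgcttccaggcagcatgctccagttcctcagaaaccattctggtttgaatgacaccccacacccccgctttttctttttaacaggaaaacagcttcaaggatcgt
The capitals are an AP-1 match 160 to 154 bases before the start of Tnfsf14, an AP-1 match 42 to 36 bases before that of Cd80, and an NF-kB match 244 to 235 bases before that of Pdcd1lg2. No matches overlapped and none was to the ISRE. Of all 32851 promoter windows of this length, 6.75% held an AP-1 match, 3.90% an NF-kB match and 2.98% an ISRE match. A match describes letters and does not show a site in use.

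Tnfsf14 (ENSMUSG00000005824), the gene of LIGHT, was higher in both treated groups. The LPS libraries held 6.53, 7.71 and 3.74 FPKM, the LPS+EtOH libraries 91.0, 105 and 68.6, and those of LPS+CPZ 74.5, 72.6 and 56.4. Both treated groups lay above every LPS library, and they overlapped each other. The ratio of the group means was 14.7 for LPS+EtOH and 11.3 for LPS+CPZ over LPS. The log2 change was 3.70 ± 0.23 SE in LPS+EtOH (limma adjusted p = 1.82e-07) and 3.33 ± 0.23 in LPS+CPZ (limma adjusted p = 1.07e-06). In LPS+EtOH against LPS 16 of the 11721 tested genes had a larger log2 change, and in LPS+CPZ against LPS 48 had. Among all tested genes of the same library, its level moved from the 38.5th to 60.0th percentile in LPS to the 94.8th to 96.5th in LPS+EtOH and the 93.9th to 95.4th in LPS+CPZ. LPS+CPZ and LPS+EtOH did not differ past the threshold (log2 difference -0.36, 95% interval -0.88 to 0.15, limma adjusted p = 0.176), but under median-ratio scaling the difference was -1.13 with an adjusted p of 0.00222. Tnfsf14 averaged 88.1 ± 18.2 FPKM in LPS+EtOH and 67.8 ± 9.93 in LPS+CPZ (SD, n = 3). Neutrophil markers differed among themselves beside it: S100a9 had means of 3369, 33420 and 3208 FPKM in LPS, LPS+EtOH and LPS+CPZ, whereas Ly6g had 16.9, 156 and 274 FPKM and was higher in both treated groups, as Tnfsf14 was. Of the 14 neutrophil markers other than S100a9, 13 had a higher mean and 1 a lower mean in LPS+EtOH than in LPS. In LPS+CPZ 8 had a higher and 6 a lower mean than in LPS. S100a9 and Ly6g were singled out after their values were seen, and the part of neutrophils was not tested.

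Cd86 (ENSMUSG00000022901), the gene of the other M2b marker among the 10, went the opposite way. The LPS libraries had 55.0, 84.4 and 69.2 FPKM, the LPS+EtOH libraries 5.76, 4.83 and 4.67, and the LPS+CPZ libraries 13.2, 18.5 and 19.9. No group overlapped another, and LPS+EtOH was lowest. The mean in LPS was 13.7 times that in LPS+EtOH and 4.05 times that in LPS+CPZ. The log2 change was -3.52 ± 0.19 SE in LPS+EtOH (limma adjusted p = 7.52e-08) and -1.96 ± 0.19 in LPS+CPZ (limma adjusted p = 7.91e-06). LPS+CPZ was above LPS+EtOH (log2 difference 1.56 ± 0.19 SE, limma adjusted p = 3.03e-05), and 810 of the 11721 genes had a larger log2 change in that comparison. In its own library Cd86 fell from the 93.9th to 95.8th percentile of tested genes in LPS to percentiles of 64.7 to 68.2 in LPS+EtOH. B cells and dendritic cells also express Cd86. The B cell markers other than Ighm were ordered in the same way by their sum, LPS above LPS+CPZ above LPS+EtOH. So was the dendritic cell list with Ccr7 but not without it. As deposited, tested genes as a whole leaned the same way. Their medians against LPS were -0.33 for LPS+CPZ and -0.82 for LPS+EtOH on the log2 scale. Of them, 61.4% were higher in LPS+CPZ than in LPS+EtOH. With median-ratio scaling both medians were -0.08. The part of B cells and dendritic cells was not tested.

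Cd80 (ENSMUSG00000075122), which encodes the sister ligand of CD86, was lowest in LPS+CPZ. Its values were 45.4, 34.9 and 35.2 FPKM in LPS, 17.7, 17.4 and 16.4 in LPS+EtOH and 5.71, 6.73 and 5.36 for LPS+CPZ. The groups did not overlap. Against LPS the log2 change was -1.11 ± 0.13 SE in LPS+EtOH (limma adjusted p = 1.37e-05) and -2.50 ± 0.13 in LPS+CPZ (limma adjusted p = 1.77e-07), and LPS+CPZ was below LPS+EtOH by a log2 difference of -1.39 (limma adjusted p = 7.31e-06). Under median-ratio scaling the change in LPS+EtOH was -0.06 and did not pass the test (adjusted p = 0.715), while that in LPS+CPZ was -2.17 and passed.

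The ratio of Cd86 to Cd80 within a library does not depend on how that library is scaled. It was 1.21, 2.42 and 1.97 in LPS, 0.326, 0.278 and 0.285 in LPS+EtOH and 2.30, 2.75 and 3.71 for LPS+CPZ. Cd86 was thus the more abundant of both transcripts in LPS and LPS+CPZ, whose ratios overlapped, and the less abundant in LPS+EtOH, whose ratios lay below all others. This ratio and the others below were chosen after the values were seen and carry no test.

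Cd40 (ENSMUSG00000017652), the receptor gene, followed the same order as Cd86. It stood at 32.9, 36.9 and 30.0 FPKM in LPS, 1.51, 1.89 and 1.45 in LPS+EtOH and 4.50, 6.77 and 7.01 for LPS+CPZ. The groups did not overlap. The mean in LPS was 20.6 times that in LPS+EtOH and 5.46 times that in LPS+CPZ. The log2 change was -3.71 ± 0.16 SE in LPS+EtOH (limma adjusted p = 3.49e-08) and -2.29 ± 0.16 in LPS+CPZ (limma adjusted p = 1.02e-06), and LPS+CPZ was above LPS+EtOH (log2 difference 1.42 ± 0.16 SE, limma adjusted p = 2.01e-05). Across the 9 libraries the log2 values of Cd40 and Cd86 had a Pearson r of 0.992, given as a description because the libraries fall into 3 groups. Cd40 is also a gene of B cells and dendritic cells, whose markers are given above, and their part was not tested.

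Cd274 (ENSMUSG00000016496), the gene of PD-L1, was the most abundant of the 10 in every library. It had 458, 431 and 301 FPKM in LPS, 574, 766 and 547 in LPS+EtOH and 576, 651 and 509 for LPS+CPZ. Every treated library lay above every LPS library, and the treated groups overlapped. The log2 change was 0.67 ± 0.20 SE in LPS+EtOH (limma adjusted p = 0.00872) and 0.56 ± 0.20 in LPS+CPZ (limma adjusted p = 0.0271). Scaled to the sum without globin genes, these were 0.25 and 0.19 and neither passed, while under median-ratio scaling they were 1.77 and 0.88 and both passed. The call in LPS+CPZ was also lost without LPS replicate 3, which had the most globin (0.37, adjusted p = 0.0908), and without LPS+CPZ replicate 1 (0.56, 0.0576) or LPS+CPZ replicate 2 (0.47, 0.0916). An annotated antisense gene with no row in the table shares exon bases with Cd274, and whether counting used the strand is not stated.

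Pdcd1lg2 (ENSMUSG00000016498), which encodes PD-L2 and neighbours Cd274 on chromosome 19, passed the test in no comparison. It stood at 8.032, 13.494 and 13.9998 FPKM in LPS, 13.28, 11.97 and 11.02 in LPS+EtOH and 14.22, 13.95 and 12.36 for LPS+CPZ, and all groups overlapped. The 95% interval of its log2 difference was -0.35 to 0.47 in LPS+EtOH against LPS and -0.20 to 0.62 in LPS+CPZ against LPS, and -0.26 to 0.56 in LPS+CPZ against LPS+EtOH. Under median-ratio scaling it passed as a rise of 1.07 in LPS+EtOH and of 0.50 in LPS+CPZ, and as lower in LPS+CPZ than in LPS+EtOH (-0.58). The ratio of Cd274 to Pdcd1lg2 was 57.1, 31.9 and 21.5 in LPS, 43.2, 64.0 and 49.6 in LPS+EtOH and 40.5, 46.7 and 41.1 for LPS+CPZ, so the groups overlapped.

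Icosl (ENSMUSG00000000732), the gene of ICOS ligand, was low in LPS+CPZ alone. The LPS libraries had 88.3, 45.6 and 58.3 FPKM, the LPS+EtOH libraries 78.6, 70.5 and 76.9, and the LPS+CPZ libraries 14.6, 14.6 and 14.8. LPS+EtOH lay within the range of LPS, and LPS+CPZ lay below both. The log2 change was -2.00 ± 0.20 SE in LPS+CPZ against LPS (limma adjusted p = 1.01e-05) and -2.28 ± 0.20 in LPS+CPZ against LPS+EtOH (limma adjusted p = 4.25e-06), a comparison in which 125 of the 11721 genes had a larger fall. In LPS+EtOH against LPS the log2 difference was 0.28 (95% interval -0.15 to 0.72, limma adjusted p = 0.202). It passed as a rise without LPS replicate 1, the highest LPS library (0.54, adjusted p = 0.00398), and under median-ratio scaling (1.36, adjusted p = 0.000202), and had the opposite sign when scaled without globin genes (-0.13).

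Tnfsf9 (ENSMUSG00000035678), the gene of 4-1BB ligand, fell in both treated groups. It had 30.0, 26.4 and 20.9 FPKM in LPS, 9.55, 5.22 and 3.81 in LPS+EtOH and 5.51, 4.59 and 4.91 for LPS+CPZ. Every treated library lay below every LPS library, and the treated groups overlapped. The log2 change was -1.96 ± 0.25 SE in LPS+EtOH (limma adjusted p = 2.38e-05) and -2.14 ± 0.25 in LPS+CPZ (limma adjusted p = 3.05e-05), with a difference between the treatments of -0.18 (95% interval -0.73 to 0.37). Under median-ratio scaling the change in LPS+EtOH was -0.96 (adjusted p = 0.00604) and the difference between the treatments was -0.85 and passed (adjusted p = 0.0151). The ratio of Tnfsf14 to Tnfsf9, both TNF family ligands, was 0.218, 0.292 and 0.179 in LPS, 9.53, 20.1 and 18.0 in LPS+EtOH and 13.5, 15.8 and 11.5 for LPS+CPZ, so that Tnfsf9 led in LPS and Tnfsf14 in every treated library. An antisense gene, Gm11110, shares exon bases with Tnfsf9 and stood at 0.203 to 0.861 FPKM.

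Tnfsf13b and Cd276 were near the lower end of detection. Tnfsf13b (ENSMUSG00000031497), the BAFF gene, stood at 0.1104, 0.1109 and 0.125 FPKM in LPS, 0.204, 0.224 and 0.180 in LPS+EtOH and 0.0568, 0.0754 and 0.0735 for LPS+CPZ. Its groups did not overlap, with LPS+EtOH highest and LPS+CPZ lowest. The summed neutrophil markers were also highest in LPS+EtOH, but were higher in LPS+CPZ than in LPS. Neutrophils are a known source of BAFF, and their part was not tested. Cd276 (ENSMUSG00000035914), which encodes the B7 family member B7-H3, stood at 0.326, 0.0900 and 0.132 FPKM in LPS, 0.116, 0.0170 and 0.0606 in LPS+EtOH and 0.00972, 0 and 0.00773 for LPS+CPZ. An antisense gene, Gm10657, shares exon bases with Cd276. It stood at 0 to 0.107 FPKM, with 0.0825, 0.0733 and 0.107 in LPS+EtOH. No fold is given for Cd276, since a 0 in such a table may be an estimate that failed. Without the filter on low values Tnfsf13b passed as a rise in LPS+EtOH against LPS (adjusted p = 0.00679) and as lower in LPS+CPZ than in LPS+EtOH (0.000981), and Cd276 as a fall in LPS+CPZ against LPS (0.0393).

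**Figure D2:**
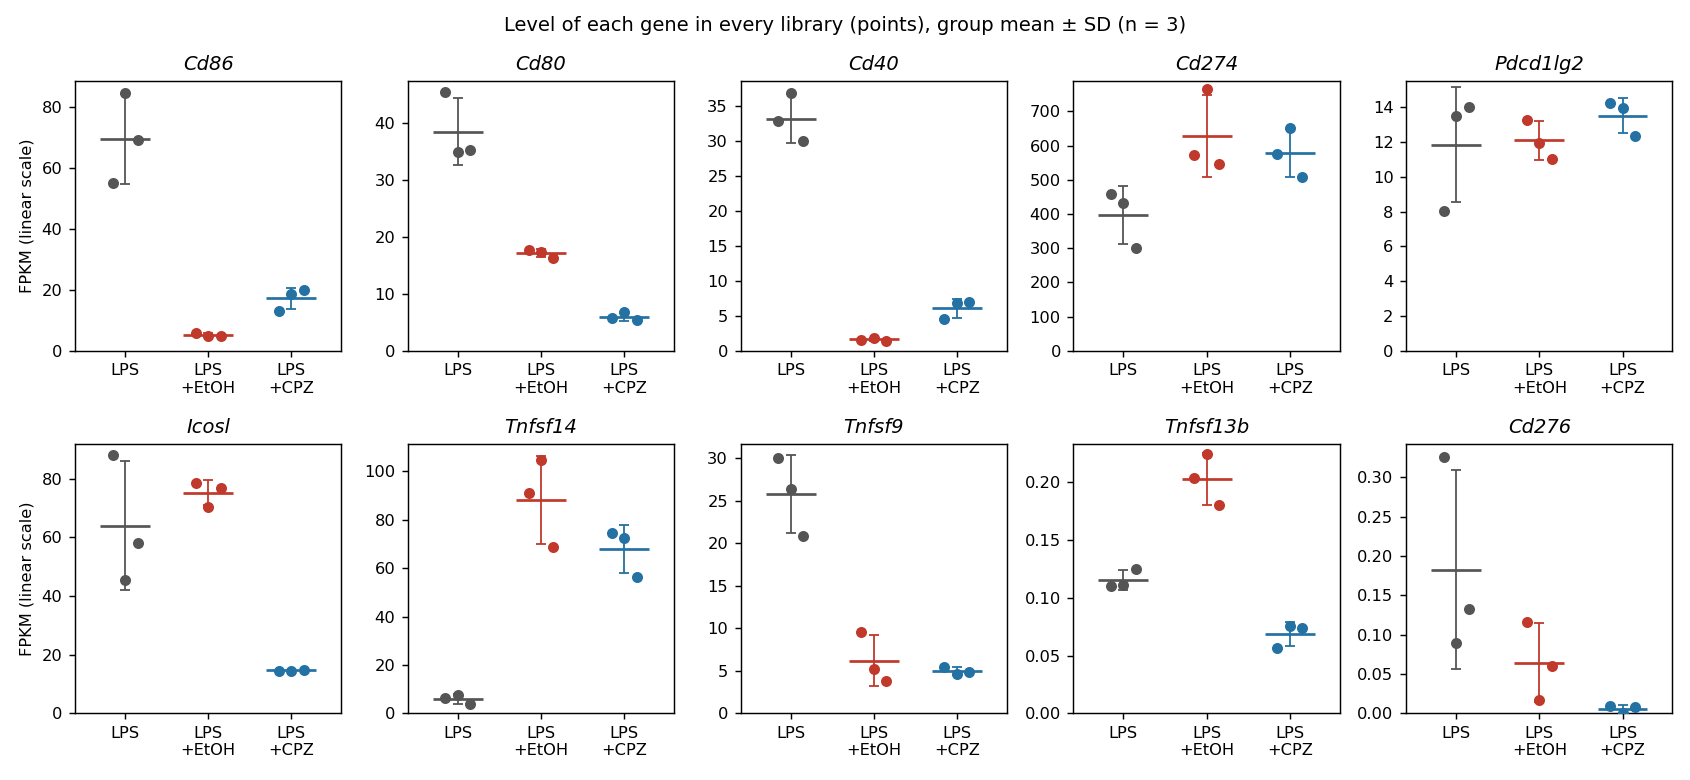
FPKM of each of the 10 genes on linear axes that start at 0 and differ between panels. Points are the 3 libraries of a group and lines the mean ± SD. Tnfsf14 was higher and Cd86, Cd40, Cd80 and Tnfsf9 lower in every treated library than in every LPS library, and Icosl was low in LPS+CPZ only.

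Counted over the 8 tested genes, Tnfsf14 and Cd274 rose and Cd86, Cd80, Cd40 and Tnfsf9 fell in LPS+EtOH against LPS, 6 changed genes in all. Of all tested genes 83.6% changed in that comparison, 19% higher and 64.6% lower, so the count says little about these genes. The median log2 change of the 8 was -0.53, beside -0.82 for all tested genes. Under median-ratio scaling 4 rose, with Icosl and Pdcd1lg2 added, and Cd80 dropped out of the falls. Of all tested genes 37.8% were higher and 42.1% lower under that scaling. In LPS+CPZ against LPS the same 2 rose and Cd86, Cd80, Cd40, Tnfsf9 and Icosl fell, where 69.2% of all tested genes changed, 20.7% higher and 48.4% lower. The median of the 8 was -1.98, beside -0.33 for all tested genes. These comparisons share the LPS libraries. In LPS+CPZ against LPS+EtOH Cd86 and Cd40 were higher and Cd80 and Icosl lower, where 76.6% of all tested genes differed, 61.4% higher and 15.2% lower. The median of the 8 was -0.15, beside 0.55 for all tested genes. Under median-ratio scaling all 8 passed in that comparison, 6 of them lower, beside 35.6% higher and 31.4% lower for all tested genes.

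**Figure D3:**
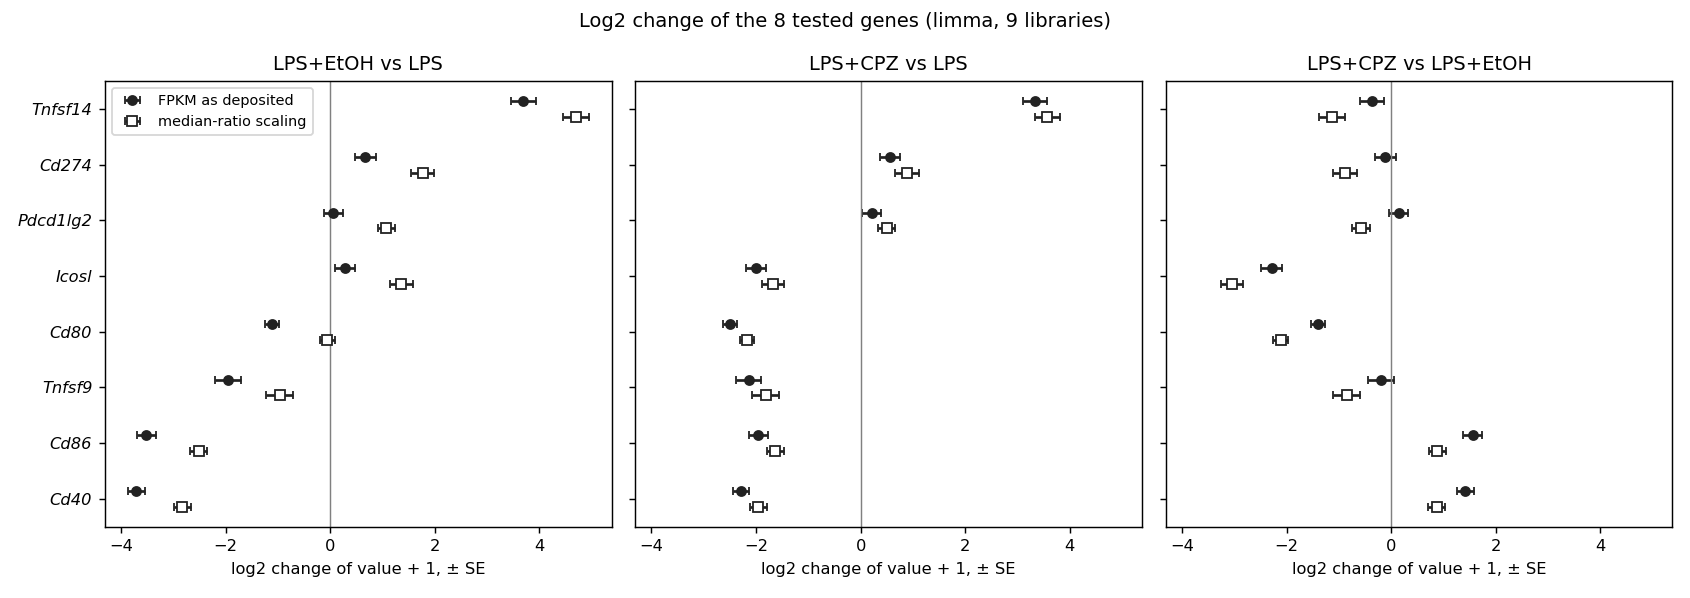
Log2 change ± SE of the 8 tested genes in the 3 comparisons, from limma over 9 libraries, with filled circles for FPKM as deposited and open squares for median-ratio scaling. Tnfsf14 stayed above 0 and Cd86, Cd40 and Tnfsf9 below 0 against LPS with either scaling, while Cd80 moved from -1.11 to -0.06 in LPS+EtOH.

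The make-up of the group of ligands also shifted. Of the summed FPKM of the 10 genes, Cd274 took 56.5 to 63.3% in LPS, 72.5 to 77.9% in LPS+EtOH and 80.8 to 82.5% in LPS+CPZ, with no overlap. Tnfsf14 took 0.703 to 1.13% in LPS, 9.40 to 11.5% in LPS+EtOH and 8.96 to 10.5% in LPS+CPZ. Cd86 took 7.589 to 12.998%, 0.492 to 0.728% and 1.86 to 3.15%. Tnfsf14 was eighth by mean level in LPS and second in both treated groups, whereas Cd86 was second in LPS, but seventh in LPS+EtOH and behind Tnfsf14 alone beside Cd274 in LPS+CPZ. Neighbours in that order were not always apart: Cd86 and Icosl overlapped in LPS, as did Cd80 with Cd40 and Cd40 with Tnfsf9. Tnfsf14 overlapped Icosl and Tnfsf9 overlapped Cd86 in LPS+EtOH, and Cd86 with Icosl, Cd40 with Cd80 and Cd80 with Tnfsf9 overlapped in LPS+CPZ. The summed level itself was 532 to 725 FPKM in LPS, 730 to 983 in LPS+EtOH and 630 to 789 in LPS+CPZ. The ratio of Cd274 to Cd86 was 4.35 to 8.33 in LPS, 99.6 to 158 in LPS+EtOH and 25.6 to 43.8 in LPS+CPZ, with no overlap between groups.

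**Figure D4:**
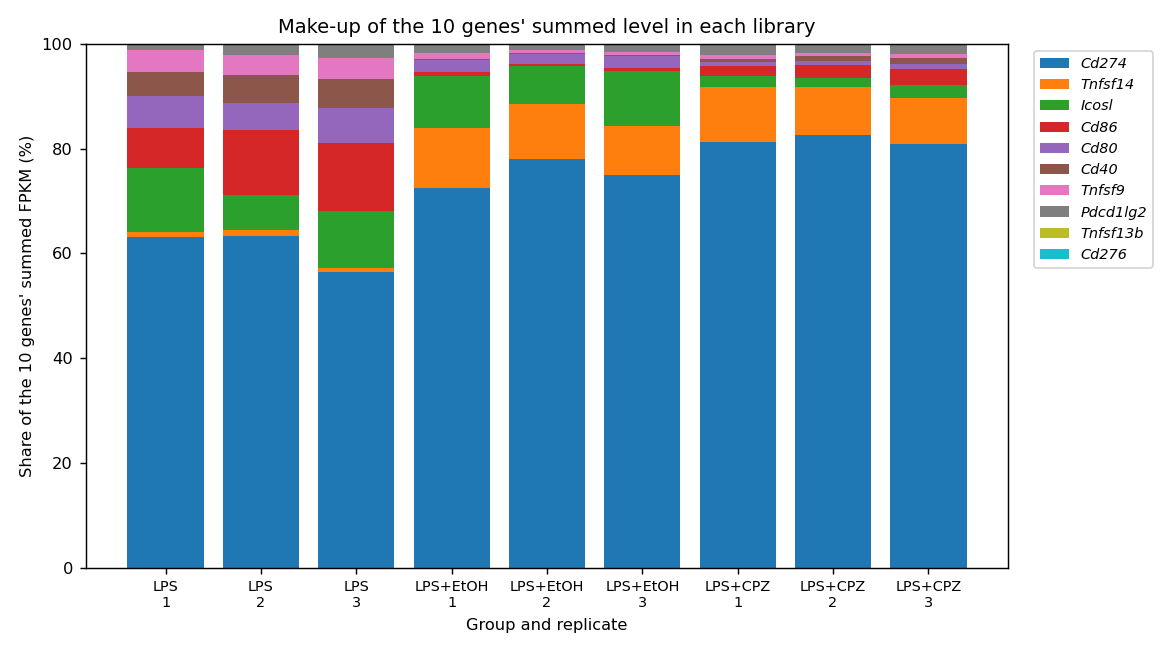
Share of each gene in the summed FPKM of the 10 genes, as stacked bars from 0 to 100%, 1 bar per library. Cd274 took more than 56% of the sum in every library, and Tnfsf14 grew from 0.703 to 1.13% of it in LPS to 8.96 to 11.5% in the treated libraries.

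The genes nearest to Cd86 and Tnfsf14 were sought among 6066 tested genes by the root-mean-square difference of centred log2 values over the 9 libraries. For Cd86 these were Rcc2, which encodes a regulator of the mitotic spindle and Rac1 (0.147), the small GTPase gene Gem (0.148), the ribosomal DNA transcription factor gene Tcof1 (0.150), the chromatin protein gene Nucks1 (0.154) and Blk (0.157), a Src family kinase gene of B cells that is also in the B cell list. Blk stood at 83.8 ± 18.5 FPKM (SD, n = 3) in LPS, 5.05 ± 0.881 in LPS+EtOH and 20.6 ± 4.19 for LPS+CPZ, close to the Cd86 means of 69.5, 5.09 and 17.2. For Tnfsf14 they were Basp1, which encodes a membrane-bound signalling protein (0.301), the ribosomal S6 kinase gene Rps6ka2 (0.312), Osgin1, an oxidative stress response gene (0.369), the stress gene Gadd45g (0.372) and the cathepsin inhibitor gene Cstb (0.382). Rps6ka2 stood at 3.46 ± 1.10, 70.2 ± 10.4 and 33.0 ± 6.30 FPKM. Pearson r was 0.995 to 0.997 for the genes near Cd86 and 0.976 to 0.985 for those near Tnfsf14, as a description over libraries that fall into groups.

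**Figure D5:**
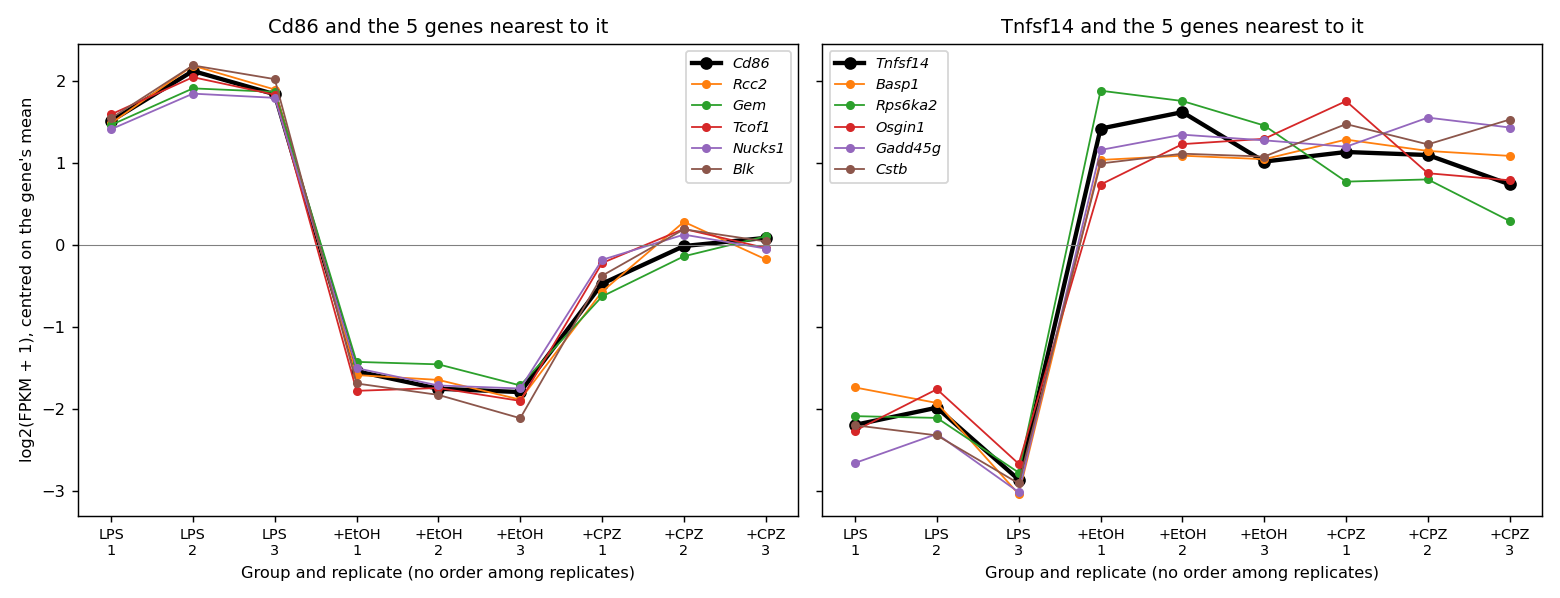
Centred log2(FPKM + 1) in the 9 libraries of Cd86 (left, black) and Tnfsf14 (right, black) with the 5 genes nearest to each in colour. Lines only join points of a gene. The genes near Cd86 are high in LPS, lowest in LPS+EtOH and between in LPS+CPZ, and those near Tnfsf14 are low in LPS only.

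The counts over lists of related genes below stand beside shares of all tested genes. As deposited these were 64.6% lower and 19% higher in LPS+EtOH against LPS, with a median of -0.82. In LPS+CPZ against LPS they were 48.4% lower and 20.7% higher, with a median of -0.33. After median-ratio scaling the shares were 42.1% lower and 37.8% higher in LPS+EtOH, and 34.1% lower and 27.5% higher in LPS+CPZ. Receptors that bind these ligands were lower in LPS+EtOH than in LPS in 10 of 12 tested cases of 14 listed, and Ltbr, the lymphotoxin beta receptor gene and a receptor of LIGHT, rose (median log2 change -1.57, beside -0.82 for all tested genes). With median-ratio scaling there were 8 falls and 2 rises. Ltbr stood at 3.35 ± 0.606 FPKM (SD, n = 3) in LPS, 11.6 ± 0.612 in LPS+EtOH and 9.10 ± 1.01 for LPS+CPZ. Btla, whose product is an inhibitory lymphocyte receptor, fell from 41.9 ± 5.20 to 1.38 ± 0.338 FPKM in LPS+EtOH and 3.90 ± 0.714 for LPS+CPZ. Ctla4, whose product competes with CD28 for CD80 and CD86, fell from 38.7 ± 9.66 to 1.11 ± 0.229 and 6.04 ± 1.76 FPKM, and the BAFF receptor gene Tnfrsf13c from 53.3 ± 17.1 to 4.48 ± 0.450 and 10.3 ± 1.47 FPKM. Btla and Tnfrsf13c are genes of B cells and Ctla4 of T cells, and markers of these cells were lower as given above. The part of these cells in the receptor values was not tested. Against LPS, 7 of 12 fell in LPS+CPZ and Ltbr and Cd28 rose, with 7 falls and 3 rises after median-ratio scaling.

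Of 23 listed costimulatory and coinhibitory ligands outside the 10, 13 were tested, of which 9 fell and Sema4a and Icam1 rose in LPS+EtOH against LPS (median log2 change -1.16, beside -0.82 and 64.6% lower for all tested genes). The rises numbered 1 without LPS replicate 2, LPS replicate 3 or LPS+EtOH replicate 2. With median-ratio scaling there were 8 falls and 5 rises. Sema4a, a semaphorin gene whose product costimulates T cells, rose from 16.7 ± 3.93 to 82.7 ± 9.45 FPKM. Cd48, which encodes a SLAM family ligand, fell from 25.4 ± 3.12 to 3.81 ± 0.615 FPKM and the CD155 gene Pvr from 10.8 ± 2.70 to 0.593 ± 0.0874 FPKM. Against LPS, 8 fell and none rose in LPS+CPZ (median -0.63), with 5 falls and 1 rise after median-ratio scaling. Icam1, which encodes the adhesion ligand of LFA-1, fell from 298 ± 30.7 to 111 ± 9.12 FPKM in LPS+CPZ, and in LPS+EtOH it stood at 389 ± 48.7 FPKM.

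Genes of MHC class II presentation, which delivers the antigen signal beside costimulation, fell in 14 of 15 tested cases, of 16 listed, in LPS+EtOH against LPS and none rose (median log2 change -2.52, beside -0.82 and 64.6% lower for all tested genes). In LPS+CPZ 13 fell and Rfxap, which encodes a subunit of the class II promoter complex, rose (median -1.05). Under median-ratio scaling 12 fell and 1 rose in LPS+EtOH, and 12 fell and 2 rose in LPS+CPZ. H2-Aa, the gene of a class II alpha chain, fell from 256 ± 60.5 FPKM to 20.3 ± 5.65 in LPS+EtOH and 75.3 ± 14.5 for LPS+CPZ. In LPS+CPZ against LPS+EtOH 14 of the 15 were higher, beside 61.4% of all tested genes. Median-ratio scaling gave 11 higher and 1 lower in that comparison, beside 35.6% higher and 31.4% lower for all tested genes. Class II genes are active in B cells and dendritic cells too.

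In the list of CD40 and lymphotoxin beta receptor signalling, 13 of 23 tested genes, of 24 listed, fell and 8 rose in LPS+EtOH against LPS (median log2 change -0.59, beside -0.82, with 64.6% lower and 19% higher, for all tested genes), whereas median-ratio scaling gave 5 falls and 16 rises. Ikbkb, which encodes an NF-kB activating kinase, fell from 8.44 ± 0.713 to 0.981 ± 0.0945 FPKM, and Bcl2a1b, a survival gene with near-identical copies whose fragments are hard to assign, rose from 626 to 1194 FPKM. The LPS+CPZ libraries had 17 falls against LPS, and Ikbkg and Bcl2l1 rose, 1 of them without LPS replicate 1 (median -0.75), with 12 falls and 3 rises after median-ratio scaling. Nfkb1, the gene of the NF-kB subunit p50, fell from 99.5 to 20.1 FPKM in LPS+CPZ.

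Regulators of costimulation in LPS and interferon signalling rose in 12 of 26 tested cases, of 28 listed, and fell in 10 in LPS+EtOH against LPS (median log2 change 0.20, beside -0.82, with 19% higher and 64.6% lower, for all tested genes), with 16 rises and 5 falls after median-ratio scaling. Ly96, which encodes the TLR4 partner MD-2, rose from 9.17 ± 0.613 to 33.2 ± 2.50 FPKM in LPS+EtOH and 38.2 ± 5.45 for LPS+CPZ. In LPS+CPZ against LPS 4 rose and 15 fell (median -0.83), with 6 rises and 13 falls after median-ratio scaling. Irf5, an interferon regulatory factor gene, averaged 65.1 ± 5.17 FPKM in LPS, 66.7 ± 0.824 in LPS+EtOH and 14.1 ± 2.14 for LPS+CPZ, the same order of groups as Icosl. March1, which encodes a ubiquitin ligase that removes CD86 and class II molecules from the surface, was called as a rise in both treated groups, with 6.03 ± 0.734, 8.48 ± 1.34 and 9.82 ± 0.915 FPKM, and was named after its values were seen.

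Of 10 tested genes, of 11 listed, for ligand trafficking and shedding, 2 rose and 4 fell in LPS+EtOH against LPS (median log2 change -0.12, beside 19% higher and 64.6% lower for all tested genes). In LPS+CPZ 3 rose and 4 fell (median -0.31, beside 20.7% higher and 48.4% lower), with 2 falls without LPS replicate 2. Under median-ratio scaling 5 rose and 3 fell in LPS+EtOH, and 3 rose and 2 fell in LPS+CPZ. Adam10, the gene of a protease that sheds surface ligands, fell from 22.5 ± 5.78 to 3.83 ± 0.643 FPKM in LPS+EtOH, and the proprotein convertase gene Furin rose from 57.5 ± 16.6 to 197 ± 30.9 FPKM. Cmtm6, whose product stabilises PD-L1 at the surface, averaged 36.1 ± 2.45 FPKM in LPS, 16.6 ± 2.85 in LPS+EtOH and 23.3 ± 2.84 for LPS+CPZ. As deposited both falls passed the threshold, with log2 changes of -1.09 and -0.62, beside medians of -0.82 and -0.33 for all tested genes. Its change under median-ratio scaling is not given here, and Cmtm6 was named after its values were seen.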

How the data were processed

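The deposited values are FPKM per gene for 9 libraries, and per the submitters' processing notes the tools included STAR, StringTie (versions not given in the sources used here) and FastQC 0.11.2; the notes list the human build hg38, although the gene IDs are those of mouse. Libraries were strand-specific, per the labels' protocols; whether counting used the strand is not given in the sources used here, and replicate pools were kept as separate columns. FPKM are not counts and are relative to the mapped fragments of each library, so abundant transcripts lower all others.

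The 11721 of 55335 genes that reached 1 FPKM in 3 or more libraries were fitted as log2(FPKM + 1) with limma 3.58.1 in R 4.3.3 (trended eBayes on the 9 libraries with no covariate), two-sided, with Benjamini-Hochberg adjustment over all tested genes and a threshold of 0.05. Alternatives were pseudocounts of 0.1 and 5, no filter and a 5 FPKM filter, scaling by TPM, median ratios, quantiles or without globin genes, untrended or robust eBayes, fits of 2 groups alone, a replicate block, and leaving out each library.

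The members and gene lists were chosen with earlier results of these data known. The named genes are all 10 members, and of each list up to 3 genes with the smallest adjusted p per comparison and 1 of the other direction, not all of which are printed; others are said to be named after their values were seen. Cd28 and Bcl2l1, and Icam1 in LPS+EtOH, printed where few genes moved against their list, are also such names. The most abundant marker of a list was left out after the values were seen. Nearest genes needed a mean of at least 5 FPKM in their highest group, and predicted genes, pseudogenes and repeated symbols were left out. GENCODE M21 gave exon positions and gene types. Listed symbols without a row were left out of the lists. The numbers listed are counts of symbols, and Fcmr, March1 and March8 were each listed under an older and a newer name.

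The fit was tested on simulated data, in which far fewer genes changed than in the deposited values. Over the comparisons, 28 to 36% of changed genes were recovered at a log2 change of 0.5 and 80 to 88% at 1. At 2 the share was 96 to 100% and at 4 it was 100%, with 1 to 9 false calls among 11721 genes. Tables and plots were made in Python 3.11.15 with pandas 2.3.3 and matplotlib 3.10.9.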

Additional observations from a re-analysis of the deposited data

How the results depend on the processing

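With 3 pooled libraries a group, small changes cannot be resolved, and the direction of changes near 0 depends on the scaling. The log2 changes of Tnfsf14, Cd86, Cd40 and Tnfsf9 against LPS, and of Icosl and Cd80 in LPS+CPZ against either group, kept their direction and their call under all 21 alternatives, as did those of Cd86 and Cd40 in LPS+CPZ against LPS+EtOH. The cause of the differences below was not tested.

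Under median-ratio scaling the genes higher and lower over the whole table were 4435 and 4936 for LPS+EtOH against LPS and 4169 and 3686 for LPS+CPZ against LPS+EtOH, and under quantile scaling 4160 and 4633, and 3844 and 3144. As deposited they were 2230 and 7566, and 7195 and 1785. A filter of 5 FPKM, which tests fewer genes, gave 5345 changed genes (3770 lower) in LPS+EtOH against LPS, 4741 (3096 lower) in LPS+CPZ against LPS and 4993 (3764 higher) in LPS+CPZ against LPS+EtOH, against 9796, 8106 and 8980 changed, with 5674 lower in LPS+CPZ against LPS. Median-ratio scaling raised the members higher in LPS+EtOH against LPS to 4 and the members differing between LPS+CPZ and LPS+EtOH to 8, with 6 lower. Members higher than in LPS numbered 1 in LPS+EtOH when scaled without globin genes, and 1 in LPS+CPZ under that scaling, under TPM and without the filter on low values; leaving out each library gave 1 to 2 in LPS+CPZ.

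Signs turned for values that had not passed the test. Pdcd1lg2 in LPS+EtOH against LPS had a log2 change of -0.041 under TPM, -0.33 scaled without globin genes and -0.18 to 0.19 over left-out libraries, and in LPS+CPZ against LPS -0.14 without globin genes and -0.026 to 0.34 over left-out libraries. In LPS+CPZ against LPS+EtOH it was -0.58 under median-ratio and -0.15 under quantile scaling. Icosl in LPS+EtOH against LPS was -0.13 without globin genes. In LPS+CPZ against LPS+EtOH Cd274 was 0.36 under quantile scaling and -0.20 to 0.040 over left-out libraries, and Tnfsf9 was -0.43 to 0.13 over left-out libraries. Cd274 in LPS+EtOH against LPS lost its call under quantile scaling (0.18) as well as without globin genes.

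Libraries of different groups share replicate numbers, and the column labels of both treated groups share a prefix by number that is left unexplained. The deviations of same-numbered libraries correlated at -0.0065 to 0.26 and above 0.1 in 3 of 9 pairs. Those of differently numbered libraries correlated at -0.20 to 0.13, and 10 of 18 best matches were to the own number. These values do not settle whether the numbers pair the samples, and the main fit assumed no pairing. With the replicate block 9871 genes changed in LPS+EtOH against LPS, 8156 in LPS+CPZ against LPS and 9086 in LPS+CPZ against LPS+EtOH, and Tnfsf14 passed as lower in LPS+CPZ than in LPS+EtOH (-0.36, limma adjusted p = 0.0249). Of the 36 counts over the gene lists, 15 moved by more than 1.5 times under median-ratio scaling and 11 under quantile scaling.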
